A study of Homo sapiens with 15 samples.

Results

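Poly(A) RNA of both transformed lines was compared with that of both untransformed lines in a set of human cell lines built on ARPE19, an established retinal pigment epithelial line. The 12 libraries compared were chosen by the transformation state given in their labels, out of 15 in the series, with 3 libraries per line. The transformed lines were RasV12, which received hTERT, p53DD, cyclinD1, CDK4R24C and H-RasV12, and AKTmyr, which received the same first 4 constructs and myr-HA-Akt. The untransformed lines were ARPE19 itself, which received no construct, and T53D4, which received hTERT, p53DD, cyclinD1 and CDK4R24C. The line MekDD, labelled weakly transformed, received those 4 constructs and MEK-DD, and its 3 libraries are shown beside the comparison without a test. Each library came from its own thawed vial of a line, grown in serum, so the p-values measure the spread between vials of 1 line and not between independently made lines. The labels do not say whether a line was 1 clone or a pool, and age, treatment and time were not varied. The question was which genes moved the same way in both transformed lines against each untransformed line. Of 13599 genes tested, 406 did so.

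Telomerase (hTERT) keeps telomeres from shortening, p53DD is a fragment that blocks the tumour suppressor p53, and cyclin D1 with an inhibitor-resistant CDK4 inactivates the retinoblastoma protein. Constitutively active H-RAS signals through several routes, among them the RAF, MEK and ERK kinases and the PI3 kinase to AKT route, and myristoylated AKT is tethered to the membrane and active without its upstream signal. ERK drives transcription factors and its own feedback inhibitors, whereas AKT keeps FOXO transcription factors out of the nucleus. Retinal pigment epithelium is a polarised, pigmented monolayer that is prone to lose its epithelial features in culture.

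The libraries held 20625626 to 46549693 reads. The first principal component of all tested genes held 43.3% of the variance and placed the RasV12 libraries at one end, with the AKTmyr libraries on the same side as both untransformed lines. The second held 18.1% and parted the sides, with the transformed libraries at 12.5 to 60.8 and the untransformed libraries at -29.6 to -20.7. MekDD lay at -21.6 to -15.7 on it. RPE65, the defining enzyme of retinal pigment epithelium, had 17 reads in all 15 libraries together, while MITF and OTX2, transcription factors of that epithelium, averaged 27.5 and 69.3 CPM (reads scaled to library size) in RasV12, 90.8 and 94.2 CPM in AKTmyr, 83.3 and 64.9 CPM in ARPE19 and 92.5 and 64.4 CPM in T53D4. Among the other listed markers of that epithelium, TYR averaged 0.0229 to 0.342 CPM across the 5 lines. BEST1 averaged 0.84 to 2.54 CPM, RLBP1 2.93 to 5.01 CPM, PMEL 2.44 to 7.1 CPM and SERPINF1 2.16 to 26.3 CPM. The keratins KRT8 and KRT18 averaged 610 to 1680 CPM and 206 to 650 CPM. Of 22 markers of other cell types, 12 had a row and 3 passed the filter on low counts. Their summed level was 4.21 to 8.24 CPM in the transformed libraries, 11.7 to 20.9 CPM in the untransformed libraries and 11.9 to 14.4 CPM in MekDD, most of it PDE6B, a photoreceptor phosphodiesterase. Rows of the table that count reads on the introduced constructs served as a check of the labels. The HRASV12 row averaged 310 CPM in RasV12, against 18.6 to 23.2 CPM in the other 4 lines. The MYR_FLAG_AKT row averaged 840 CPM in AKTmyr, against 104 to 118 CPM in the others. The name of this row gives a FLAG tag where the label gives HA, and which tag the cells hold was not tested. The cyclin D1 and CDK4 rows went against a simple reading of the labels. The CCND1 row averaged 2350 ± 121 CPM in RasV12 and 858 ± 132 CPM in AKTmyr, against 193 ± 41.6 CPM in ARPE19, 146 ± 32.1 CPM in T53D4 and 270 ± 57.6 CPM in MekDD (SD over 3 libraries). The CDK4r24c row averaged 2380 ± 23.3 CPM in RasV12 and 1010 ± 90.1 CPM in AKTmyr, against 70.7 ± 12 CPM in ARPE19, 92.2 ± 11.8 CPM in T53D4 and 142 ± 13.7 CPM in MekDD. The libraries labelled T53D4 and MekDD, which should hold both constructs, thus stood far closer to ARPE19, which holds neither, than to RasV12 or AKTmyr. The TERT row of the T53D4 libraries averaged 879 CPM, against 0.176 CPM in ARPE19. High construct reads for cyclin D1 and CDK4 therefore go with the transformed lines in every result that follows, and their part cannot be told apart from transformation in these libraries.

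The mean of the RasV12 and AKTmyr lines differed from the mean of the ARPE19 and T53D4 lines, with a gene called where the adjusted p of edgeR's quasi-likelihood test was under 0.05. Of all genes tested, 1371 (10.1%) were higher and 1715 (12.6%) were lower in the transformed lines. Most of them, 1015 of the 1371 and 1294 of the 1715, had the same sign in all 4 pairs of a transformed with an untransformed line, whether called there or not. Fewer passed the test in each pair. Among the 1371 higher genes, 142 were called higher in all 4 pairs, 544 were called against both untransformed lines in RasV12 but not in AKTmyr, 298 in AKTmyr but not in RasV12, and 387 in neither. Among the 1715 lower genes, these counts were 264, 822, 302 and 327. The genes kept in all 4 pairs were 1.04% of all genes tested on the higher side and 1.94% on the lower side. Over all genes tested, and so partly among those counted above, 102 genes were higher in RasV12 and lower in AKTmyr than each untransformed line, and 97 were lower in RasV12 and higher in AKTmyr. With the line as the unit, 2 lines against 2, limma called 0 genes in the mean contrast, with 862 of the 13599 genes tested at an unadjusted p under 0.05. Without ARPE19 replicate 2, the genes kept in all 4 pairs numbered 92 higher and 200 lower. An exact permutation test of 2 against 2 lines cannot give a two-sided p under 0.333.

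**Figure D1:**
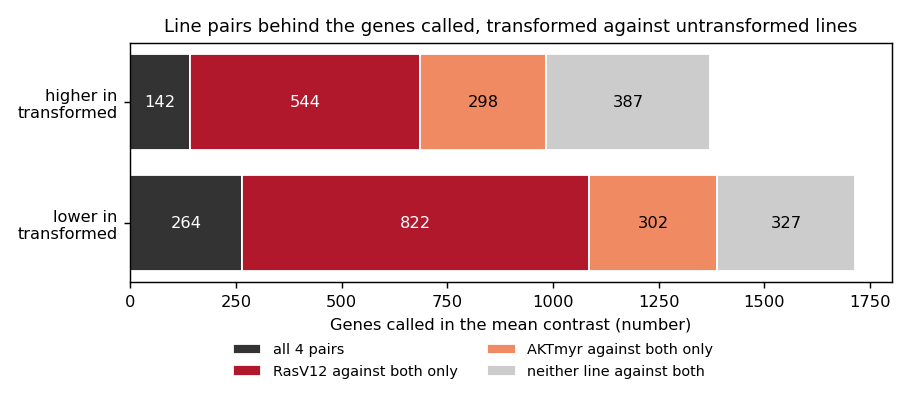
Number of genes called in the mean contrast of the transformed against the untransformed lines (horizontal axis), for genes higher and genes lower in the transformed lines. Colours give the line pairs called; the dark segment is the 142 higher and 264 lower genes called the same way in all 4 pairs, and the widest segment in each bar is that called in RasV12 but not AKTmyr.

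The median log2 fold change of the mean contrast was 1.13 for the 142 kept higher genes and -1.58 for the 264 kept lower genes, against -0.00374 for all genes tested. The kept lower genes had a median level of 6.05 CPM in the transformed and 20.5 CPM in the untransformed lines, and the kept higher genes had 25.6 CPM in the transformed and 12.7 CPM in the untransformed lines. All 6 transformed libraries lay above all 6 untransformed libraries for 136 of the 142 genes, and below them for 256 of the 264. Over all genes tested such separation was seen for 2.26% on the higher and 3.39% on the lower side, and the choice of the 406 genes favours it. In each of the 4 pairs the change was at least 2-fold for 55 of the 142 and 148 of the 264 genes. A line had 3 or fewer reads for 7 of the higher and 20 of the lower genes, and for these the fitted fold changes depend on the prior count of the fit. The weakest of the 4 adjusted p-values was 0.0499 for SNAI1, just inside the threshold, and 0.0501 for IGFBP6, just outside it.

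The 12 largest rises were chosen among kept genes with at least 5 CPM on the higher side and no overlap of transformed with untransformed libraries. Of these 12, 3 were neuropilins or a semaphorin, proteins of axon guidance. NRP1, a neuropilin that binds class 3 semaphorins and vascular endothelial growth factor, had 263, 313 and 407 CPM in the RasV12 libraries and 75.3, 103 and 161 CPM in AKTmyr, against 21, 45.5 and 49.2 CPM in ARPE19 and 24, 41.1 and 50.4 CPM in T53D4. The lowest transformed library stood above the highest untransformed one, as that choice required, and the log2 fold change was 2.32 ± 0.25 (SE, adjusted p = 2.39e-05). NRP2, its paralog, had 59.3, 52.1 and 88.6 CPM in RasV12 and 186, 184 and 113 CPM in AKTmyr, against 29.8, 17.6 and 19.7 CPM in ARPE19 and 16.5, 13.4 and 13.1 CPM in T53D4 (log2 fold change 2.53 ± 0.18, adjusted p = 6.58e-07). Here AKTmyr, not RasV12, was the higher line. SEMA3A, a secreted semaphorin that signals through neuropilins, had 40.7, 23.8 and 23.2 CPM in RasV12 and 10.6, 8.74 and 18.4 CPM in AKTmyr, against 4.95, 5.99 and 4.37 CPM in ARPE19 and 2.77, 2.65 and 2.81 CPM in T53D4 (log2 fold change 2.35 ± 0.20, adjusted p = 3.81e-06). SEMA3E, another secreted semaphorin, fell instead, to 0.355 to 1.92 CPM in the 6 transformed libraries, against 4.67 to 12.7 CPM in the 6 untransformed libraries (log2 fold change -3.23 ± 0.29, adjusted p = 5.34e-06). In the list of semaphorins, plexins, ephrins and Eph receptors, 7 of 37 members tested rose (18.9%, against 10.1% of all genes) and 4 fell (10.8%, against 12.6%) in the mean contrast. Its median log2 fold change was -0.033.

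The other large rises included receptors, secreted proteins and an enzyme of lipid synthesis. ADGRG1, an adhesion receptor coupled to G proteins, had 73.4, 269 and 364 CPM in RasV12 and 306, 313 and 274 CPM in AKTmyr, against 15.1, 36.6 and 46.7 CPM in ARPE19 and 30.2, 39 and 61.1 CPM in T53D4 (log2 fold change 2.81 ± 0.36, adjusted p = 9.65e-05). One RasV12 library stood well below the other 5 transformed libraries, and still above every untransformed one, as the choice of the largest rises required. THBD, thrombomodulin, which turns thrombin towards activation of protein C, had 172, 145 and 121 CPM in RasV12 and 8.38, 12.1 and 12.2 CPM in AKTmyr, against 4.31, 3.82 and 3.66 CPM in ARPE19 and 6.95, 3.95 and 4.05 CPM in T53D4. The AKTmyr libraries were close to the untransformed ones, and the log2 fold change of 3.17 ± 0.17 (adjusted p = 6.98e-08) came mostly from RasV12. GPAM, the mitochondrial enzyme that starts glycerolipid synthesis, had 215, 322 and 532 CPM in RasV12 and 207, 134 and 99.4 CPM in AKTmyr, against 42.9, 35.1 and 29.5 CPM in ARPE19 and 43.8, 31.5 and 21.2 CPM in T53D4 (log2 fold change 2.75 ± 0.30, adjusted p = 2.49e-05). SPP1, the secreted phosphoprotein osteopontin, had 24.7, 35.7 and 49 CPM in RasV12 and 32.6, 38.7 and 58.1 CPM in AKTmyr, against 0.586, 5.02 and 4.21 CPM in ARPE19 and 0.137, 2.19 and 2.48 CPM in T53D4 (log2 fold change 4.12 ± 0.61, adjusted p = 0.000278). It rose by a like amount in both transformed lines, with a RasV12 minus AKTmyr difference of -0.24 on the log2 scale (adjusted p = 0.818).

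HTR7, a serotonin receptor, had 12, 16 and 15.3 CPM in RasV12 and 0.892, 1.1 and 2.17 CPM in AKTmyr, against 0.125 to 0.307 CPM in the 6 untransformed libraries (log2 fold change 4.45 ± 0.28, adjusted p = 2.03e-07). COL6A3, a chain of type VI collagen, had 41.3, 33.2 and 17.7 CPM in RasV12 and 1.11, 1.03 and 1.13 CPM in AKTmyr, against at most 0.205 CPM in an untransformed library (log2 fold change 5.92 ± 0.53, adjusted p = 5.01e-06). STC1, the secreted glycoprotein stanniocalcin, had 2612 reads in the transformed and 27 in the untransformed libraries, a depth-adjusted ratio of 94.4 (exact 95% interval 64.7 to 144, counting error only). Its level was 51.7, 15.1 and 16.7 CPM in RasV12 and 3.38, 0.947 and 0.792 CPM in AKTmyr, against 0.41, 0.231 and 0.0416 CPM in ARPE19 and 0.0952 CPM or less in T53D4. For all 3 of these genes the AKTmyr libraries lay between RasV12 and the untransformed lines. SAMD11 had 3.92 to 12.1 CPM in the transformed against 0.333 to 1.37 CPM in the untransformed libraries (log2 fold change 2.92 ± 0.40, adjusted p = 0.000168). It overlaps the more highly expressed NOC2L on the other strand, and whether the counting used strand was not given in the sources used here, so its level is uncertain.

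**Figure D2:**
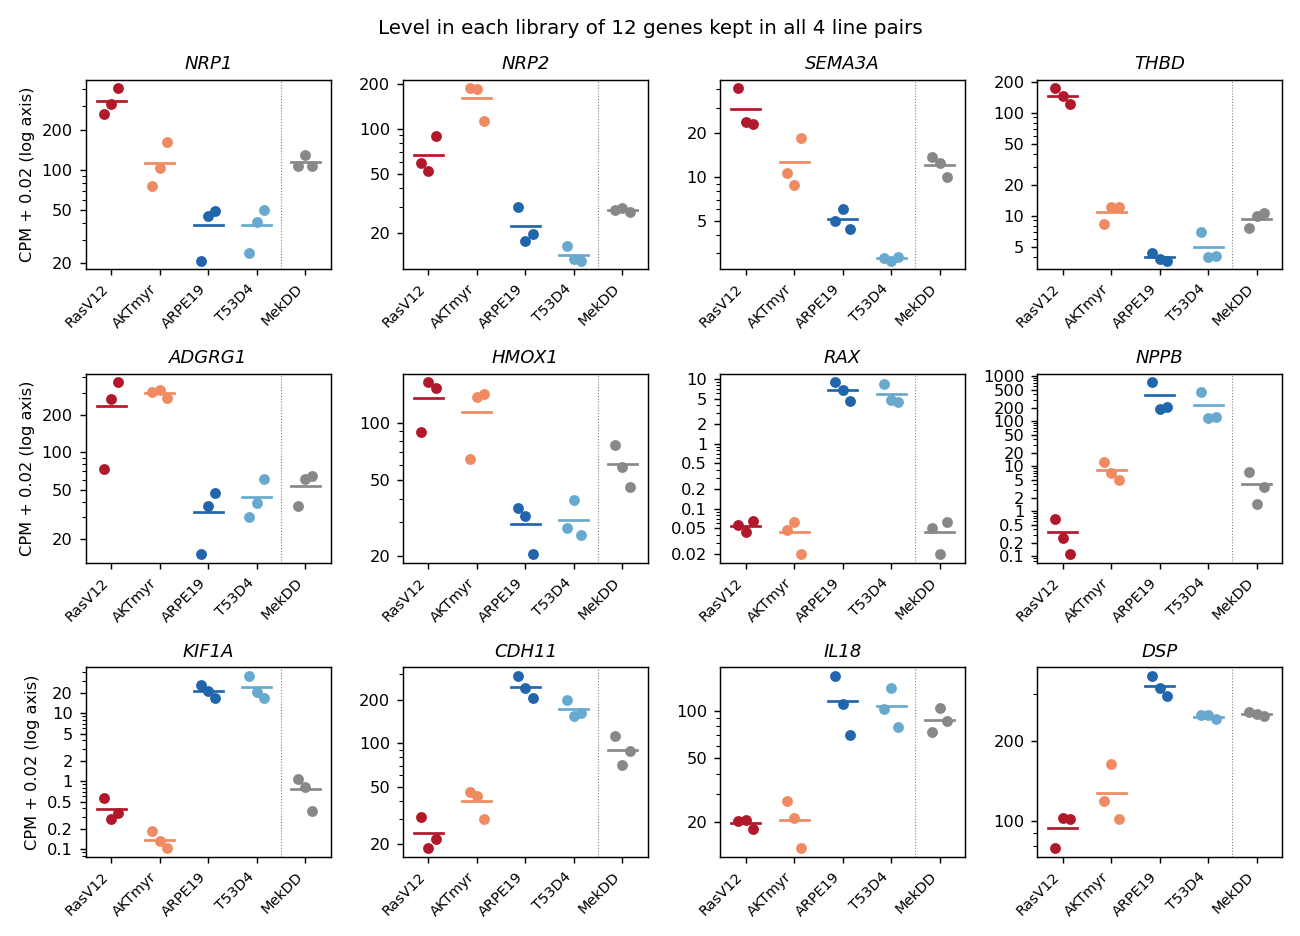
Level of 12 genes in each library (points, CPM plus 0.02 on a log axis) and the mean of each line (bar), with RasV12 and AKTmyr first, then ARPE19 and T53D4, and MekDD beyond the dotted line. In all 12 genes the 6 transformed libraries lay outside the range of the 6 untransformed ones, which was required of the largest rises and falls among them. The place of MekDD varied from that of the transformed lines for RAX to that of the untransformed lines for DSP.

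The largest falls led with RAX, a homeobox factor of the early eye field. It had 6 reads in all transformed libraries together, at most 0.045 CPM in a library, against 8.91, 6.69 and 4.58 CPM in ARPE19 and 8.22, 4.64 and 4.43 CPM in T53D4. The 1222 reads of the untransformed libraries were 209-fold the transformed level after adjustment for depth (exact 95% interval 95.6 to 570). MekDD was as low as the transformed lines, with at most 0.0423 CPM in a library. NPPB, the brain natriuretic peptide, had 0.657, 0.236 and 0.0901 CPM in RasV12 and 12.2, 6.85 and 5 CPM in AKTmyr, against 733, 183 and 203 CPM in ARPE19 and 436, 119 and 123 CPM in T53D4 (log2 fold change -7.47 ± 0.65, adjusted p = 4.26e-06). KIF1A, a kinesin that carries synaptic vesicle precursors, had 0.0834 to 0.548 CPM in the transformed libraries, against 16.9 to 35.4 CPM in the untransformed ones (log2 fold change -6.73 ± 0.32, adjusted p = 2.74e-08). NLGN4X, a neuroligin of synapses whose reads a close paralog may share, had 0 reads in RasV12 and 8 reads in AKTmyr, against 601 reads in the untransformed libraries, which were 77-fold higher per depth (exact 95% interval 38.8 to 179). Its partner gene NRXN3, a neurexin, had 2.88 to 3.65 CPM in RasV12 and 23.8 to 38.6 CPM in AKTmyr, against 49.8 to 68.7 CPM in the untransformed libraries (log2 fold change -2.42 ± 0.13, adjusted p = 1.04e-07).

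Several falls were graded, with RasV12 lowest, AKTmyr between and the untransformed lines highest. ASIC2, an acid-sensing ion channel, had 0.0901 to 0.548 CPM in RasV12 and 9.91 to 15.2 CPM in AKTmyr, against 32.1 to 67.2 CPM in the untransformed libraries. VANGL2, a planar cell polarity protein, had 0.0365 to 0.0709 CPM in RasV12 and 3.29 to 6.13 CPM in AKTmyr, against 7.29 to 16.6 CPM. ADAMTS5, an aggrecan-cleaving protease, had 0.63 to 1.39 CPM in RasV12 and 5.46 to 19 CPM in AKTmyr, against 25.5 to 155 CPM. In all 3 the lines were ordered this way, and the choice of the largest falls required no overlap of a transformed with an untransformed library. CLSTN2, a cadherin-family synaptic protein, had 7.73 to 13.7 CPM in RasV12 and 23.3 to 59.6 CPM in AKTmyr, against 180 to 511 CPM in the untransformed libraries. BICC1, an RNA-binding protein, had 1.3 to 1.98 CPM in RasV12 and 9.54 to 13.7 CPM in AKTmyr, against 30.3 to 74.5 CPM in the untransformed libraries. CPXM2, MTUS1 and IQCA1 showed the same order, with log2 fold changes of -3.91, -3.83 and -3.63. These 8 falls had adjusted p-values of the mean contrast of at most 4.61e-05.

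Of 24 keratin and junction genes tested, 12 fell (50%, against 12.6% of all genes) and 2 rose (8.33%, against 10.1%) in the mean contrast. RasV12 was below both untransformed lines at 10 of the 24 and AKTmyr at 4. For this and the other lists, the share of all genes called so in a single transformed line was not computed. Against the mean of the untransformed lines, 2371 genes were lower and 2158 higher in RasV12, and 1597 and 1657 in AKTmyr. In the list, 2 falls and 1 rise were kept in all 4 pairs, and the median log2 fold change was -0.56, against -0.00374 for all genes. DSP, desmoplakin of desmosomes, had 78.7, 102 and 101 CPM in RasV12 and 118, 163 and 101 CPM in AKTmyr, against 351, 317 and 294 CPM in ARPE19 and 249, 249 and 241 CPM in T53D4 (log2 fold change -1.36 ± 0.11, adjusted p = 2.87e-06). CLDN11, a tight junction claudin, had 6.03 to 24.6 CPM in the transformed against 50.3 to 78.1 CPM in the untransformed libraries (log2 fold change -2.09 ± 0.25, adjusted p = 5.87e-05). Both fell in all 4 pairs. JUP, plakoglobin, and the paired keratins KRT8 and KRT18 also fell in the mean contrast, by 1.86, 0.80 and 0.98 on the log2 scale, but AKTmyr was not called below T53D4 for any of the 3. These 3 were picked after their values were seen. LAMB3, a chain of laminin 332, went the other way, with 138, 146 and 256 CPM in RasV12 and 62, 58.1 and 51.8 CPM in AKTmyr, against 21.9 to 36.6 CPM in the untransformed libraries (log2 fold change 1.95 ± 0.19, adjusted p = 9e-06). In bulk samples, fewer cells of a type and less RNA per cell cannot be told apart.

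Among 17 genes of epithelial to mesenchymal transition factors and cadherins, 2 rose (11.8%, against 10.1% of all genes) and 4 fell (23.5%, against 12.6%). Without ARPE19 replicate 1, the rises numbered 4. SNAI1, the repressor Snail, had 1.24, 1.68 and 4.1 CPM in RasV12 and 5.19, 3.13 and 2.38 CPM in AKTmyr, against 0.879, 0.41 and 0.458 CPM in ARPE19 and 1.44, 0.304 and 0.238 CPM in T53D4. It was low in every line, 1 library of each side lay in the range of the other, and the log2 fold change was 2.20 ± 0.44 (adjusted p = 0.00273). ESRP2, an epithelial splicing regulator, had 0.675 to 1.26 CPM in the transformed against 2.91 to 4.71 CPM in the untransformed libraries (log2 fold change -2.09 ± 0.15, adjusted p = 6.18e-07). It overlaps NFATC3 on the other strand. CDH11, a mesenchymal cadherin, fell as well, with 18.8 to 31 CPM in RasV12 and 29.9 to 46.3 CPM in AKTmyr, against 154 to 292 CPM in the untransformed libraries (log2 fold change -2.74 ± 0.17, adjusted p = 2.03e-07).

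The core of the hexamer bound by SNAI1-type factors, CAGGTG on either strand, was looked for in the RefSeq promoters (GRCh38.p14, 250 bases before to 50 after the start). It was in 21.3% of the 202 kept lower genes with a promoter, 14.5% of the 110 kept higher genes and 18.2% of the 10902 tested genes with one. The DSP window, on the plus strand at chr6:7541421-7541720, is shown for its 2 matches, in capitals. A match is a description of the letters only.
DSP: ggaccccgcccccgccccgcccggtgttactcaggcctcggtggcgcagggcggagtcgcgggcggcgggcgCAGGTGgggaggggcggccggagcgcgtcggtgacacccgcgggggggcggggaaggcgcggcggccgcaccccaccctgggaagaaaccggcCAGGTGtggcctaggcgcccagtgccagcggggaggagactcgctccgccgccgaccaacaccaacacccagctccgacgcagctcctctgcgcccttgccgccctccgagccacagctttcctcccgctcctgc

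Of 20 genes named as targets of YAP and TEAD, the coactivator and DNA-binding partner of the Hippo pathway, 10 fell (50%, against 12.6% of all genes) and 1 rose (5%, against 10.1%), with a median log2 fold change of -0.475. RasV12 was below both untransformed lines at 9 and AKTmyr at 4. ANKRD1, a muscle ankyrin-repeat protein, had 36.9, 96.2 and 144 CPM in RasV12 and 63.3, 115 and 41.1 CPM in AKTmyr, against 281, 278 and 209 CPM in ARPE19 and 354, 430 and 248 CPM in T53D4 (log2 fold change -1.85 ± 0.30, adjusted p = 0.000578). F3, tissue factor, had 292 to 412 CPM in the transformed against 407 to 803 CPM in the untransformed libraries, with 1 library of each side in the range of the other (log2 fold change -0.95 ± 0.12, adjusted p = 0.000107). Both were kept in all 4 pairs. Upstream in the Hippo pathway, SAV1, the scaffold of the MST kinases, had 36.7 to 54.2 CPM in the transformed against 77.2 to 99.1 CPM in the untransformed libraries. WWC1, the scaffold KIBRA, had 160 to 229 CPM in the transformed against 328 to 454 CPM in the untransformed libraries. Their log2 fold changes were -0.88 ± 0.07 and -1.02 ± 0.11 (adjusted p = 2.71e-06 and 1.78e-05), and both were picked after their values were seen. The TEAD hexamer GGAATG, on either strand, was in 11.4% of the kept lower, 12.7% of the kept higher and 10.9% of all tested promoters. The ANKRD1 window, on the minus strand at chr10:90921038-90921337, is shown for its 2 matches, in capitals.
ANKRD1: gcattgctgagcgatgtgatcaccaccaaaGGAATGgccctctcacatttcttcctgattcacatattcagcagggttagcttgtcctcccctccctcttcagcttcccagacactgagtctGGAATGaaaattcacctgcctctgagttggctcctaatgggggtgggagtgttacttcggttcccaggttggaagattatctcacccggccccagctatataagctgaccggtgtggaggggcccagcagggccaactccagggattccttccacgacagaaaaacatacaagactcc

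Contractile and actin genes fell in the mean contrast at 8 of 23 members (34.8%, against 12.6% of all genes), with 0 rises (against 10.1%). The median log2 fold change was -0.40, but 0 were kept in all 4 pairs. RasV12 was below both untransformed lines at 11 of the 23 and AKTmyr at 0, with 1 at unadjusted p-values under 0.05 and 0 by DESeq2. TPM1, tropomyosin, which was picked after its values were seen, had 534 to 954 CPM in RasV12 and 774 to 1490 CPM in AKTmyr, against 1360 to 2110 CPM in the untransformed libraries. The falls numbered 5 without ARPE19 replicate 1 or T53D4 replicate 1. Collagen and matrix genes gave 2 rises (6.67%) and 5 falls (16.7%) of 30, beside 10.1% and 12.6% of all genes, with 3 falls without RasV12 replicate 2 and 8 without AKTmyr replicate 1. RasV12 was below both untransformed lines at 12 of them, AKTmyr was above both at 4 and below both at 1, and 3 were called in opposite directions in all 4 pairs. COL12A1, a fibril-associated collagen, had 300 to 435 CPM in the transformed against 437 to 840 CPM in the untransformed libraries (log2 fold change -0.91 ± 0.12, adjusted p = 0.000142). Of 16 integrins, 3 rose (18.8%, against 10.1% of all genes) and 2 fell (12.5%, against 12.6%). ITGA5, the fibronectin receptor chain, had 510, 678 and 1000 CPM in RasV12 and 961, 733 and 704 CPM in AKTmyr, against 257 to 463 CPM in the untransformed libraries (log2 fold change 1.25 ± 0.18, adjusted p = 0.000225).

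Proteases and their inhibitors moved in both directions, with 9 rises (36%, against 10.1% of all genes) and 7 falls (28%, against 12.6%) among 25 tested. RasV12 was above both untransformed lines at 12 and below both at 7, and AKTmyr at 4 and 2. Without RasV12 replicate 3 the rises numbered 5. Kept in all 4 pairs were MMP16, a membrane-anchored metalloproteinase, with 17.2 to 27.1 CPM in the transformed against 5.72 to 11.1 CPM in the untransformed libraries, and the inhibitor SERPINE2, protease nexin, with 20.4 to 91.6 CPM against 8.96 to 18.5 CPM. Their log2 fold changes were 1.18 ± 0.17 and 1.79 ± 0.27 (adjusted p = 0.000272 and 0.000324). TIMP2, a metalloproteinase inhibitor picked after its values were seen, fell to 261 to 468 CPM in the transformed libraries, against 615 to 915 CPM in the untransformed ones (log2 fold change -1.02 ± 0.17, adjusted p = 0.000609). MMP1, interstitial collagenase, picked after its values were seen, shows how the mean of both lines can come from RasV12. It had 2150, 3250 and 5090 CPM in RasV12 and 0.027, 0.242 and 0.458 CPM in AKTmyr, against 0.0879 to 0.583 CPM in the untransformed libraries. It was called higher in the mean contrast and was not kept.

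Genes of the antioxidant response had the most kept rises of any list by number, though the lists differ in size. NRF2 is a factor that is released from degradation under oxidative or electrophilic stress and binds the antioxidant response element. Of 25 of its targets and aldo-keto reductases, 8 rose (32%, against 10.1% of all genes) and 0 fell (against 12.6%) by edgeR. Of the 25, 4 were kept as rises in all 4 pairs, where 1.04% of all genes tested were kept higher. The median log2 fold change of the list was 0.386. At an unadjusted p under 0.05, 2 were lower, and DESeq2 called 0 lower. AKTmyr was above both untransformed lines at 12 and RasV12 at 4. The rises numbered 5 without AKTmyr replicate 2 or ARPE19 replicate 1. HMOX1, haem oxygenase, had 89.7, 163 and 152 CPM in RasV12 and 64.3, 137 and 141 CPM in AKTmyr, against 35.8, 32.5 and 20.4 CPM in ARPE19 and 28, 39.2 and 25.9 CPM in T53D4 (log2 fold change 2.03 ± 0.23, adjusted p = 3.73e-05). GCLM, the modifier subunit of the first enzyme of glutathione synthesis, picked after its values were seen, had 63.1, 57.4 and 50.2 CPM in RasV12 and 64.6, 66.5 and 74.7 CPM in AKTmyr, against 30.6 to 42 CPM in the untransformed libraries (log2 fold change 0.72 ± 0.11, adjusted p = 0.000476). AKR1C1 and AKR1C2, steroid-reducing enzymes with near-identical sequence whose reads may be shared, had 821 and 469 reads in the transformed libraries, against 4 and 6 reads in the untransformed ones. Per depth they were 200-fold (exact 95% interval 77.9 to 737) and 76.3-fold (34.8 to 209) higher. Most of those reads were RasV12's, at 6.64 to 11.3 CPM for AKR1C1, against 0.135 to 0.834 CPM in AKTmyr. AKTmyr held 40 reads of AKR1C1 and 22 of AKR1C2, and both genes are among the 4 kept rises. The core of the response element, TGACNNNGC on either strand, was in 16.4% of the kept higher, 11.9% of the kept lower and 15% of all tested promoters. The GCLM window, on the minus strand at chr1:93909381-93909680, is shown for its 1 match, in capitals and on the opposite strand to the gene.
GCLM: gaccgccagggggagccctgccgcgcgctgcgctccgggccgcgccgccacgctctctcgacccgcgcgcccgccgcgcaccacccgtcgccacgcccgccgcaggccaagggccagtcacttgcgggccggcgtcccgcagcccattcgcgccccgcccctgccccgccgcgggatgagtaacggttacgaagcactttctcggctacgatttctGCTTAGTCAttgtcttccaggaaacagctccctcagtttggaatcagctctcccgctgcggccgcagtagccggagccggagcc

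Ligands of NOTCH and BMP receptors were among the genes called. JAG1, a membrane ligand of NOTCH receptors, had 29.5, 42.6 and 59.7 CPM in RasV12 and 52.5, 55 and 68.6 CPM in AKTmyr, against 14.5 to 18.3 CPM in the untransformed libraries (log2 fold change 1.57 ± 0.14, adjusted p = 6.13e-06). HEY1, a repressor that NOTCH induces, had 2.16 to 7.07 CPM in the transformed against 0.557 to 1.4 CPM in the untransformed libraries (log2 fold change 1.95 ± 0.22, adjusted p = 3e-05). The NOTCH and Hedgehog list as a whole gave 3 rises (16.7%, against 10.1% of all genes) and 4 falls (22.2%, against 12.6%) of 18. BMP4, a secreted bone morphogenetic protein, fell to 14.7 to 18.6 CPM in RasV12 and 23.3 to 29.7 CPM in AKTmyr, against 101, 105 and 108 CPM in ARPE19 and 38.1, 93.3 and 104 CPM in T53D4 (log2 fold change -2.11 ± 0.26, adjusted p = 7.32e-05). BMP2, another BMP ligand, picked after its values were seen, was called higher in the mean contrast (log2 fold change 0.86) and was not kept, at 130.9 CPM in RasV12 and 4.30 CPM in AKTmyr, against 16.9 CPM in ARPE19 and 10.2 CPM in T53D4. Among 31 TGF-beta and BMP genes, 8 rose (25.8%, against 10.1% of all genes) and 4 fell (12.9%, against 12.6%). The rises numbered 5 without RasV12 replicate 3 or ARPE19 replicate 3. IL18, an interleukin of the IL-1 family, had 18 to 20.5 CPM in RasV12 and 13.6 to 27 CPM in AKTmyr, against 70.3 to 165 CPM in the untransformed libraries (log2 fold change -2.46 ± 0.22, adjusted p = 5.09e-06). Of 25 interferon response genes, 3 rose (12%, against 10.1% of all genes) and 4 fell (16%, against 12.6%). The falls numbered 1 without RasV12 replicate 1 and 2 without AKTmyr replicate 1, ARPE19 replicate 2, T53D4 replicate 1 or T53D4 replicate 2. The neighbouring genes IFI44L and IFI44 both rose in all 4 pairs, with 20.4 to 33.9 and 5.44 to 5.76 CPM in RasV12 and 1.74 to 3.79 and 5.99 to 10.5 CPM in AKTmyr, against 0.381 to 1.04 and 1.75 to 3.04 CPM in the untransformed libraries.

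Genes that report ERK activity did not move together in the transformed lines. Of 23 genes of ERK output and feedback, RasV12 was above both untransformed lines at 16, AKTmyr was above both at 0 and below both at 16, and 13 were called in opposite directions in all 4 pairs. The count of 0 was also 0 at unadjusted p-values under 0.05 and by DESeq2. Over all 13599 genes tested, 102 were called higher in RasV12 and lower in AKTmyr in all 4 pairs, and 97 the other way. The share of all genes called against both untransformed lines in a single transformed line was not computed. The median log2 fold change of RasV12 was 1.34 against ARPE19 and 1.85 against T53D4, and that of AKTmyr was -1.12 and -0.92. In the mean contrast this left 8 rises (34.8%, against 10.1% of all genes), 1 fall (4.35%, against 12.6%) and a median of 0.08. DUSP6, a phosphatase that switches ERK off, had 347, 302 and 403 CPM in RasV12 and 4, 3.15 and 4.33 CPM in AKTmyr, against 7.5, 11 and 7.45 CPM in ARPE19 and 8.15, 6.27 and 6.57 CPM in T53D4. It was called higher in the mean contrast (log2 fold change 2.23 ± 0.14, adjusted p = 2.03e-07) although AKTmyr was below both untransformed lines. SPRY4, a sprouty inhibitor of the same pathway, had 83.3 to 148 CPM in RasV12 and 0.333 to 0.771 CPM in AKTmyr, against 1.57 to 4.31 CPM in the untransformed libraries, and was also called higher (log2 fold change 1.42 ± 0.28, adjusted p = 0.00237). MYC was the member kept in all 4 pairs, and it fell, with 139, 150 and 108 CPM in RasV12 and 87.4, 97.2 and 73.6 CPM in AKTmyr, against 233, 173 and 154 CPM in ARPE19 and 232, 214 and 189 CPM in T53D4 (log2 fold change -0.90 ± 0.12, adjusted p = 0.000112). Of 27 MYC target and ribosome biogenesis genes, 1 rose (3.7%, against 10.1% of all genes) and 1 fell (3.7%, against 12.6%), the fall being MYC itself.

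Some regulators of these pathways did move alike in both lines, all picked after their values were seen. DUSP1, a phosphatase of JNK and p38, had 157 to 167 CPM in RasV12 and 88 to 189 CPM in AKTmyr, against 286 to 522 CPM in the untransformed libraries (log2 fold change -1.18 ± 0.20, adjusted p = 0.000782). PHLPP1, a phosphatase that acts on AKT, had 34 to 54.4 CPM in the transformed against 65 to 134 CPM in the untransformed libraries (log2 fold change -1.23 ± 0.18, adjusted p = 0.000292). SHOC2, a scaffold that promotes RAF activation, and CBL, a ubiquitin ligase of receptor kinases that overlaps MCAM on the other strand, rose by 0.43 ± 0.08 and 0.39 ± 0.07 on the log2 scale (adjusted p = 0.00183 and 0.00123). Of 22 FOXO targets and AKT-repressed genes, 10 fell (45.5%, against 12.6% of all genes) and 1 rose (4.55%, against 10.1%). However, RasV12 was below both untransformed lines at 10 of the 22 and AKTmyr at 1. The member kept was KLF6, a zinc-finger factor, with 66.6 to 99.6 CPM in RasV12 and 76.9 to 82.1 CPM in AKTmyr, against 95.8 to 133 CPM in ARPE19 and 122 to 144 CPM in T53D4 (log2 fold change -0.65 ± 0.11, adjusted p = 0.000963). Here too, 1 library of each side lay in the range of the other.

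Few cell cycle genes passed the test in the mean contrast. Of 37 DNA replication genes 2 rose (5.41%, against 10.1% of all genes). Of 34 kinetochore and spindle checkpoint genes 1 rose (2.94%), as did 1 of 34 mitotic kinase, spindle and cytokinesis genes (2.94%). By edgeR over all genes, 0 members of these lists fell, against 12.6% of all genes, and 0 were kept in all 4 pairs. In these 3 lists 2, 2 and 0 members were lower at an unadjusted p under 0.05, and DESeq2 called 1, 0 and 0 lower. Without ARPE19 replicate 3 the rises in these lists numbered 4, 6 and 4. The median log2 fold change of the replication genes was 0.58 in RasV12 and 0.13 in AKTmyr against ARPE19, but -0.038 in RasV12 and -0.46 in AKTmyr against T53D4. BUB1, a checkpoint kinase, had 119 to 186 CPM in RasV12 and 97.4 to 153 CPM in AKTmyr, against 85.8 to 169 CPM in ARPE19 and 111 to 132 CPM in T53D4 (log2 fold change 0.16 ± 0.17, adjusted p = 0.565). AURKB, the kinase of the chromosomal passenger complex, had 47.7 to 68 CPM in RasV12 and 33.6 to 48.3 CPM in AKTmyr, against 26.6 to 41.7 CPM in ARPE19 and 56.2 to 64.3 CPM in T53D4 (log2 fold change 0.14 ± 0.14, adjusted p = 0.515). For both genes the ranges of the sides overlapped. CDKN1A, the inhibitor p21, was called higher (log2 fold change 1.20 ± 0.20, adjusted p = 0.000724), with 371 to 555 CPM in RasV12 and 623 to 1400 CPM in AKTmyr, against 378 to 656 CPM in ARPE19 and 164 to 216 CPM in T53D4. RasV12 was thus not above ARPE19. CDKN2A, the locus of p16 and p14ARF, was called lower by a narrow margin (log2 fold change -0.54 ± 0.18, adjusted p = 0.0488) and AKTmyr did not share the fall. CDK4, picked after its values were seen, was kept among the higher genes, at 1650 to 1720 CPM in RasV12 and 729 to 807 CPM in AKTmyr, against 54.3 to 106 CPM in the untransformed libraries, but its reads cannot be told from those of the construct.

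Among 19 genes of retinal pigment epithelium and eye identity, 6 fell (31.6%, against 12.6% of all genes) and 0 rose (against 10.1%) by edgeR. At an unadjusted p under 0.05, 3 were higher, and DESeq2 called 1 higher. The median log2 fold change was 0.043, with 10 of the 19 above 0, so the list did not fall as a whole. RAX and PMEL were kept in all 4 pairs. PMEL, a melanosome protein that overlaps CDK2 on the other strand, had 2.2 to 2.81 CPM in the transformed against 3.54 to 8.73 CPM in the untransformed libraries (log2 fold change -1.26 ± 0.18, adjusted p = 0.00026). MITF and LHX2, transcription factors of the same tissue, each fell in a single line. MITF had 25.1 to 31.2 CPM in RasV12 and 78.1 to 114 CPM in AKTmyr, against 66.1 to 107 CPM in the untransformed libraries. LHX2, picked after its values were seen, had 21 to 37.4 CPM in RasV12 and 1.26 to 1.83 CPM in AKTmyr, against 22.7 to 33.3 CPM in the untransformed libraries. PDE6B, listed as a photoreceptor marker, had 3.38 to 6.67 CPM in the transformed against 9.72 to 18.9 CPM in the untransformed libraries and was kept among the falls. ALDH1A1, a retinaldehyde dehydrogenase, rose, with 2.23, 2.01 and 9.82 CPM in RasV12 and 1.46, 2.33 and 6.04 CPM in AKTmyr, against at most 0.25 CPM in an untransformed library (log2 fold change 5.70 ± 0.83, adjusted p = 0.000259).

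In the remaining lists other than protocadherins and neural adhesion, at most 1 member was kept. Of 32 glycolysis and hypoxia genes 5 rose (15.6%, against 10.1% of all genes) and 0 fell (against 12.6%), with AKTmyr above both untransformed lines at 5 and RasV12 at 0. At an unadjusted p under 0.05, 1 was lower in the mean contrast, and RasV12 was above both untransformed lines at 2, while DESeq2 called 1 and 0. The rises numbered 3 without RasV12 replicate 1 or 3, ARPE19 replicate 2 or 3, or T53D4 replicate 2 or 3. VEGFA and NDRG1, both induced by hypoxia, averaged more in the transformed lines but were not kept, while EPAS1, the hypoxia-inducible factor HIF-2 alpha, rose in all 4 pairs to 232 to 600 CPM, against 128 to 226 CPM in the untransformed libraries (log2 fold change 1.27 ± 0.21, adjusted p = 0.000578). These 3 were picked after their values were seen. Of 25 genes of the ATF4, serine and amino acid response 4 rose (16%, against 10.1% of all genes) and 0 fell, with 0 lower at an unadjusted p under 0.05 or by DESeq2. Without AKTmyr replicate 1 or T53D4 replicate 1, 7 rose. Their median log2 fold change was 0.76 in RasV12 and 1.36 in AKTmyr against ARPE19, but -0.21 in RasV12 and -0.034 in AKTmyr against T53D4. Of 28 BCL2 family and death receptor genes 4 rose (14.3%, against 10.1% of all genes) and 7 fell (25%, against 12.6%). The rises numbered 2 without ARPE19 replicate 3 or T53D4 replicate 3. BOK, a pro-apoptotic member, was kept among the falls, at 51.6 to 83.6 CPM in the transformed against 121 to 223 CPM in the untransformed libraries (log2 fold change -1.17 ± 0.15, adjusted p = 9.88e-05). Of 25 angiogenic factors 3 rose (12%, against 10.1% of all genes) and 8 fell (32%, against 12.6%). The rises numbered 1 without RasV12 replicate 3, ARPE19 replicate 2 or ARPE19 replicate 3, and 5 without T53D4 replicate 1. The falls included PDGFB and EDN1, which were picked after their values were seen and were not kept. Of 23 protocadherin and neural adhesion genes 2 rose (8.7%, against 10.1% of all genes) and 6 fell (26.1%, against 12.6%). Kept in all 4 pairs were 1 rise, PCDHGC3, and 2 falls, NLGN4X and NRXN3, whose values are given above. PCDHGC3 rose (log2 fold change 1.13 ± 0.14, adjusted p = 5.96e-05), but it shares exons with the other genes of its cluster and its count is uncertain. The 37 HOX genes listed had 0 members tested.

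**Figure D3:**
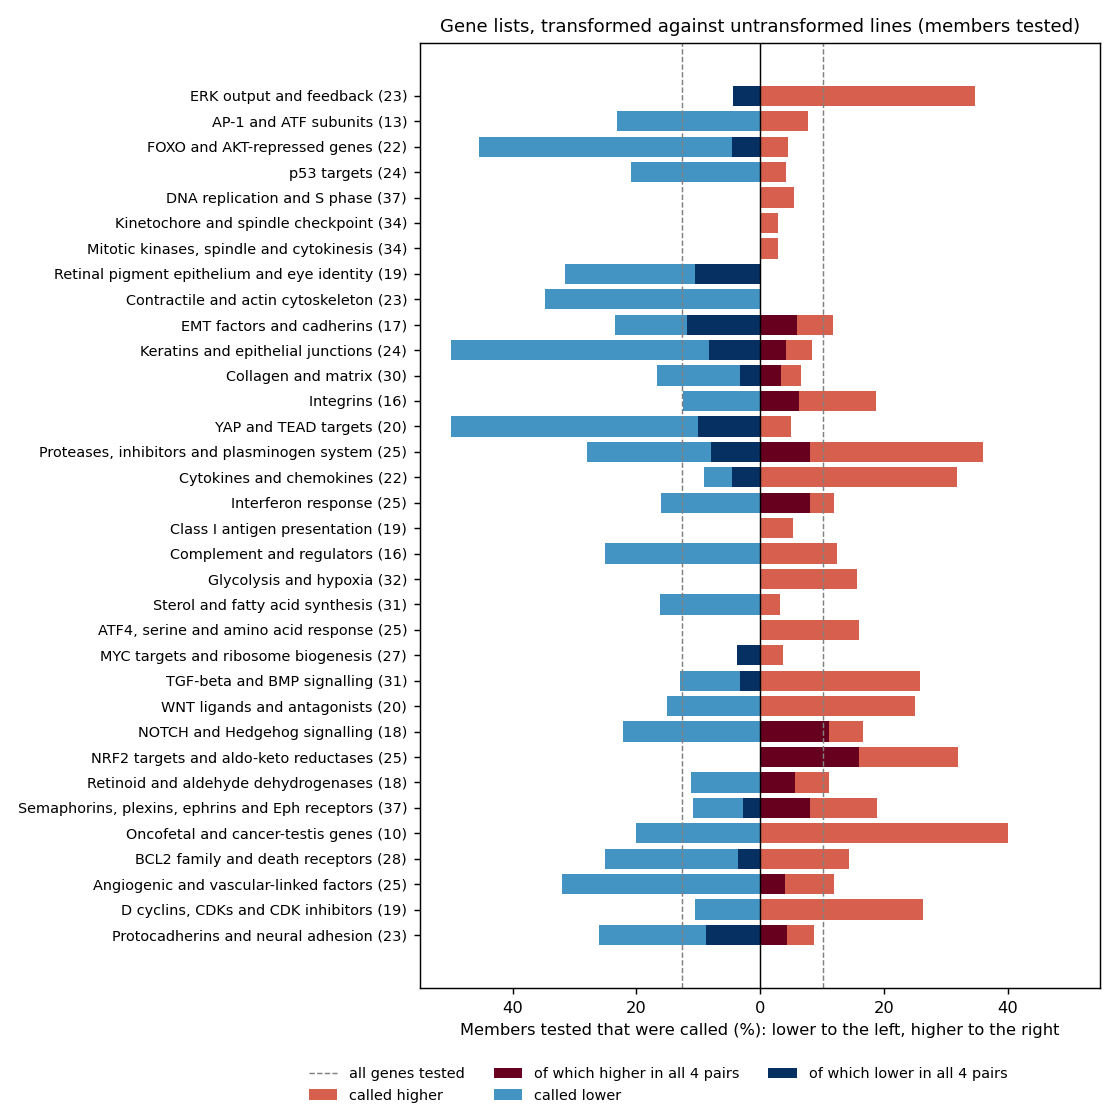
Share of each gene list's tested members (number in brackets) that was called higher (right) or lower (left) in the mean contrast, with the darker part called the same way in all 4 pairs. Dashed lines give the 10.1% higher and 12.6% lower among all genes tested; lists with under 10 members tested are not drawn, and the lists share members and were chosen with earlier results known.

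Some of the kept genes differed between the transformed lines, at a smaller share than all genes tested. The RasV12 minus AKTmyr contrast was called at 41 of the 142 higher and 98 of the 264 lower genes, against 40.4% of all genes tested, where the rule for keeping a gene favours those alike in both lines. RasV12 lay further from the untransformed lines at 32 of the 41 and 75 of the 98, and the like share over all genes was not computed. The T53D4 minus ARPE19 contrast was called by edgeR at 0 of the 406 genes, which the rule favours too, with 32 at an unadjusted p under 0.05 and 1 called by DESeq2. The share of all genes tested that was called in this contrast was not computed. The count of 0 is therefore not read as a trait of the kept genes. Among the rises, THBD, COL6A3 and STC1 were higher in RasV12 by 3.75, 4.82 and 4.01 on the log2 scale, and NRP2 was higher in AKTmyr, with a difference of -1.275. Among the falls, VANGL2, ASIC2 and IQCA1 were lower in RasV12, with differences of -6.23, -5.21 and -4.86, and KIF1A was lower in AKTmyr, with a difference of 1.56 (adjusted p = 0.0464).

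**Figure D4:**
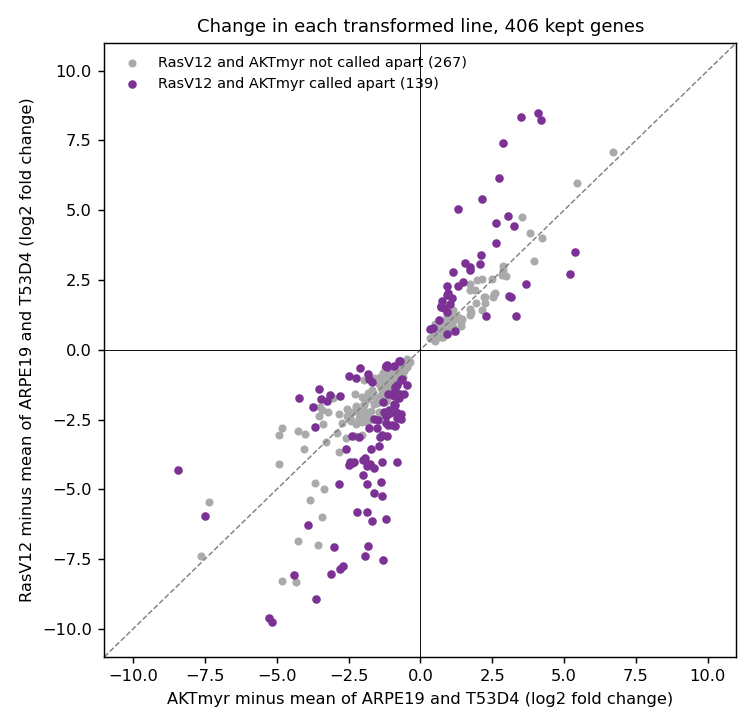
Log2 fold change of the 406 kept genes in RasV12 (vertical) and AKTmyr (horizontal), each against the mean of ARPE19 and T53D4, so the axes share their controls. Purple points are the 139 genes at which RasV12 and AKTmyr differed, most of them further from 0 in RasV12 and the most extreme points including genes with 3 or fewer reads in a line.

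The MekDD libraries entered no contrast. Their cyclin D1 and CDK4 construct rows averaged 270 and 142 CPM, closer to ARPE19 and T53D4 than to RasV12 or AKTmyr although the labels list both constructs for MekDD, and the part of this in the values that follow was not tested. On a log scale the MekDD mean stood at a median of 43.7% of the way towards the transformed mean for the 142 higher genes and 40.8% for the 264 lower genes. All 3 MekDD libraries lay within or past the range of the transformed libraries at 27 of the higher and 51 of the lower genes, within or past that of the untransformed libraries at 26 and 64, and in neither at 89 and 149. Like counts over all genes tested were not computed, so whether this place of MekDD is particular to the kept genes was not tested. HMOX1 had 76.4, 58.9 and 45.9 CPM in MekDD and NRP1 107, 130 and 107 CPM, both above every untransformed library. CPXM2, a carboxypeptidase-like protein, had 0.0509 to 0.0845 CPM in MekDD, below every RasV12 library. ITGA5, with 292 to 303 CPM, ESRP2, with 5.24 to 6.17 CPM, and KLF6, with 120 to 147 CPM, stayed among the untransformed libraries or beyond them.

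**Figure D5:**
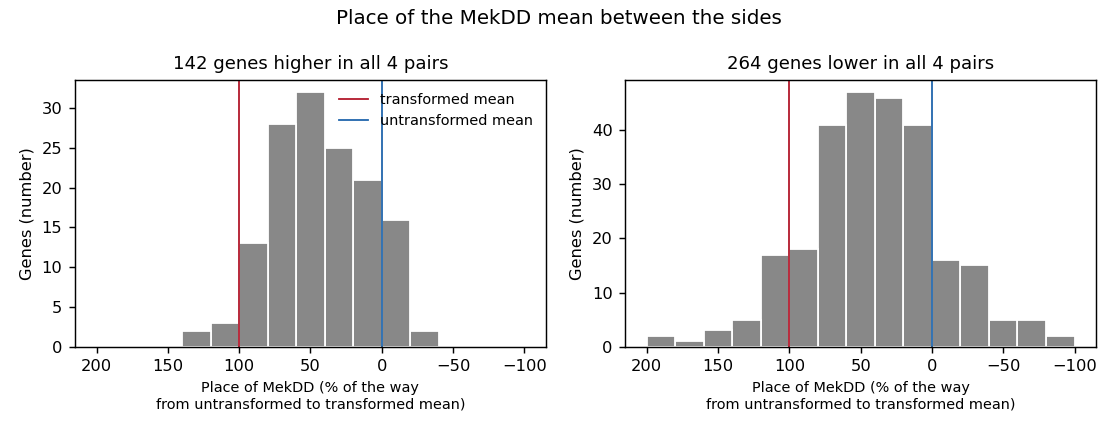
Number of kept genes (vertical) by the place of the MekDD mean between the transformed mean (100%, red line) and the untransformed mean (0%, blue line) on a log2 scale with 0.5 CPM added, for the 142 genes higher and the 264 genes lower in all 4 pairs. Most genes fall between the lines, with medians of 43.7% and 40.8%; values past either end of the axis are drawn in the end bars.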

How the data were processed

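The authors deposited 1 table of raw read counts per gene for all 15 libraries. Per the submitters' processing notes, build hg38, featureCounts 1.6.4 and HISAT2 2.1.0 are among those named. The strand setting of the counting is not given in the sources used here. Per the labels' protocols the libraries were poly(A)-selected, directional and paired-end. The counts hold 15510 gene rows and 7 construct rows, which were left out of tests and library sizes, and every row had a total of at least 10 reads.

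Genes were filtered with filterByExpr (minimum count 10), which left 13599. Counts were scaled by TMM and tested with edgeR 4.0.16 (R 4.3.3) by the quasi-likelihood test, with the 5 lines as groups and no replicate block, and p-values were adjusted by the Benjamini-Hochberg method over all genes tested, with a threshold of 0.05. MekDD libraries entered the estimate of the spread only. The contrast was the mean of the RasV12 and AKTmyr lines minus the mean of ARPE19 and T53D4. A gene was kept when all 4 line pairs were called with the same sign. DESeq2 1.42.0 and limma 3.58.1 were alternatives, and the scripts were tested on simulated data. Intervals of read ratios are exact binomial ones for counting error only.

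Named genes were the 12 largest rises and falls among kept genes with at least 5 CPM on the higher side and no overlap of libraries, up to 3 kept members of each of 37 gene lists, and DUSP6, SPRY4, MITF, BUB1, AURKB, CDKN1A and CDKN2A. TERT, CCND1, CDK4, HRAS, AKT1 and MAP2K1 share reads with constructs and were outside the rule. Some genes that the rule names are not reported here. The members and lists were chosen with earlier results of these data known. MTUS1, SAV1, TIMP2, CLDN11, IL18, CDKN2A, DERL1, CRELD2, ERLEC1, TLR4, CRB3 and CIITA overlap other annotated genes and KRT8 and KRT18 overlap each other, so reads could be shared. Promoters are those of RefSeq (GRCh38.p14), matched by symbol for 110 of 142 kept higher, 202 of 264 kept lower and 10902 of 13599 tested genes.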

Additional observations from a re-analysis of the deposited data

Results flagged for a closer look

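Construct reads lay outside the comparison and stood above the level of ARPE19, which received no construct. The CCND1 construct row averaged 2350 CPM in RasV12 and 858 CPM in AKTmyr, and the CDK4r24c row averaged 2380 CPM in RasV12 and 1010 CPM in AKTmyr, as given beside the first results.

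For the following genes kept in all 4 pairs, the RasV12 minus AKTmyr contrast was itself called by edgeR, and the values are log2 differences. RasV12 was the higher line for these rises, with differences of 4.01 for STC1, 4.82 for COL6A3, 3.41 for HTR7, 3.25 for IFI44L, 3.75 for THBD, 1.279 for GPAM, 1.23 for SEMA3A, 1.54 for NRP1, 1.65 for LAMB3, 0.97 for SERPINE2, 0.96 for HEY1, 4.41 for AKR1C1, 4.51 for AKR1C2, 0.86 for PCDHGC3, 1.16 for CDK4 and 1.06 for CIITA. AKTmyr was the higher line for the rise of NRP2, with -1.275.

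Among the falls RasV12 was the lower line, with differences of -4.60 for NPPB, -5.21 for ASIC2, -6.23 for VANGL2, -3.61 for ADAMTS5, -4.46 for CPXM2, -3.96 for MTUS1, -2.00 for CLSTN2, -4.86 for IQCA1, -2.96 for BICC1, -0.74 for CDH11, -0.45 for DSP, -1.67 for SEMA3E, -3.23 for NRXN3, -0.43 for SAV1 and -0.56 for KLF5. AKTmyr was the lower line for the falls of KIF1A at 1.56, MYC at 0.62 and LSR at 1.54. Groups of 3 libraries were not tested for a library that stands apart.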

How the results depend on the processing

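With 12 libraries each left out in turn, the mean contrast called 1037 to 1332 genes higher and 1427 to 1729 lower, the genes kept numbered 92 to 136 higher and 194 to 263 lower, and 112 to 146 kept genes differed between RasV12 and AKTmyr. The low of 92 came without ARPE19 replicate 2. The mean contrast was called in all 12 fits for the 142 and 264 genes, and all 4 pairs for 59 and 125. With the replicate number as a block, counts were 2235 higher and 2530 lower, with 285 and 482 kept. Same-numbered libraries correlated at 0.0103 to 0.722 in their deviations from the line means, above 0.1 in 16 of 18 pairs of the 4 lines. The median was 0.340, against -0.172 for libraries of other numbers. In addition, 15 of 15 libraries correlated best with their own number, a hint of pairing from the data and not the design. The main fit held no block, so this shared variation stayed in its spread. DESeq2 called 1766 and 1907, with 187 and 325 kept. With the line as the unit, limma called 0 and 0. T53D4 alone as the untransformed side gave 877 higher, and RasV12 alone as the transformed side 2158. At least 2-fold changes numbered 375 and 716, with 55 and 148 kept. Same sign in all 4 pairs with the mean contrast called held for 1015 and 1294. Without the 5 libraries numbered 1, chosen after seeing the data, 108 and 209 were kept. With AKTmyr alone as the transformed side, DUSP6 was at -1.03, SPRY4 at -2.37, MITF at 0.048, MMP1 at -0.35 and PHLDA1 at -0.18 (log2), and with RasV12 alone LHX2 was at 0.11, all opposite in sign to the mean contrast. The cause was not tested. Levels under about 1 CPM rest on few reads and limit the precision of SNAI1, PRSS8 and the lowest lines.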

Other observations

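The kept genes named here were picked after their values were seen, from no fixed list, and no share of genes like them was computed. ERN1, the stress sensor IRE1, averaged 12.3 ± 4.04 CPM in RasV12 and 9.51 ± 3.11 CPM in AKTmyr, against 4.77 ± 1.61 CPM in ARPE19 and 4.30 ± 0.76 CPM in T53D4 (SD over 3 libraries), a log2 fold change of 1.26. EDEM3, which trims sugars of misfolded glycoproteins, averaged 57.9 and 43.9 CPM in RasV12 and AKTmyr, against 30.5 and 30.9 CPM in ARPE19 and T53D4. ERLEC1, a lectin of the same disposal route, averaged 122.6 and 107.2 CPM in RasV12 and AKTmyr, against 78.4 and 72.4 CPM in ARPE19 and T53D4. DERL1 and CRELD2 rose by 0.40 and 0.69 on the log2 scale. MekDD averaged 4.28 CPM for ERN1, 38.5 CPM for EDEM3, 82.9 CPM for ERLEC1, 56.5 CPM for DERL1 and 24.5 CPM for CRELD2, which is above both untransformed means for EDEM3 and ERLEC1 and below both for the other 3.

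KLF5, an epithelial zinc-finger factor, averaged 21.9 ± 0.25 CPM in RasV12 and 32.2 ± 2.13 CPM in AKTmyr, against 78.8 ± 7.75 CPM in ARPE19 and 80.0 ± 3.56 CPM in T53D4, with MekDD at 45.2 ± 7.87 CPM. LSR, a protein of tricellular junctions, averaged 14 and 4.84 CPM in RasV12 and AKTmyr, against 26.7 and 26.9 CPM in ARPE19 and T53D4. CRB3, a polarity protein, SPINT1, a protease inhibitor, and PRSS8, a membrane protease, fell by 2.14, 2.30 and 2.19 on the log2 scale. TLR4, a Toll-like receptor, its adaptor MYD88 and the negative regulator SIGIRR fell by 1.19, 0.54 and 1.32 on the log2 scale. CIITA, the activator of class II antigen genes, averaged 4.52 and 2.17 CPM in RasV12 and AKTmyr, against 1.21 and 1.10 CPM in ARPE19 and T53D4.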
